A study of Rattus norvegicus with 6 samples.

Results

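Dorsal root ganglia hold the cell bodies of sensory neurons, whose axons run to the skin and into the spinal cord. RNA was sequenced from ganglia of SD rats in 6 libraries. The SNI group, with 3 libraries, had a spared nerve injury: of the terminal branches of the sciatic nerve, the tibial and the common peroneal were ligated and transected with a short piece of their far ends taken out, and the sural was spared. The sham group, also with 3, had the same nerve laid bare and the wound closed. The sources used here state no time after surgery, age, sex, spinal level or side. They also do not say whether each library came from a separate animal, so that p-values reflect library-to-library spread that may be technical. The genes described here are those of apoptosis and of programmed axon degeneration, chosen by name: caspases, Bcl2-named genes and a fixed set of other BCL-2 relatives, apoptosome genes, inhibitors of apoptosis, Sarm1 and the Nmnat genes. The rule finds 41 of the 18696 genes with an authors' average for each group, of which 39 are reported here, and 2 of them, Bcl2 and Xiap, are among the 1637 genes with a value for each library.

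Caspases are proteases made as inactive precursors. Initiator caspases are switched on at death receptors or at the apoptosome, executioner caspases then cut many cell proteins, and inflammatory caspases process cytokines. Proteins of the BCL-2 family decide whether the outer mitochondrial membrane is opened: Bax and Bak1 form the pore, the anti-apoptotic members hold them back and the BH3-only members release them. The pore lets out cytochrome c, which assembles the apoptosome with Apaf1, and Diablo, which binds inhibitors of apoptosis. Axons have a separate route: SARM1 breaks down NAD, and NMNAT2, a short-lived NAD-making enzyme carried along the axon, keeps it inactive. Many of these proteins are controlled after translation, which RNA levels do not show.

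Most of these genes differed by less than 1.5-fold between the groups, and a small set had averages at least 1.5-fold higher after SNI. Levels are given in TPM, the length-corrected share of a gene among all transcripts, which can be compared between genes. Of the 39 genes, 30 (76.9%) had a higher average in SNI and 9 a lower one, beside 53.1% of all genes with a higher average. The difference was under 1.2-fold for 17 of the 39 (43.6%), where 55.3% of all genes differed by less than that. A difference of at least 1.5-fold, after 1 TPM was added to both averages to shrink the ratios of very low genes, was taken as a mark. Low genes can still pass it, as Casp6 did from average read counts of 8.80 in SNI and 20.9 in sham. No test was made, since there is 1 average per group. By that mark 4 of 39 were higher in SNI (10.3%), namely Bcl2a1, Casp1, Birc3 and Bok, where 5.91% of all genes were, and 1, Casp6, was lower (2.56%), where 2.19% of all genes were. At this mark the higher share is larger than that of all genes but rests on 4 genes only. The lower share rests on 1 gene and is close to that of all genes. With so few genes, neither share is read as a property of the set. The 39 genes were chosen with earlier results of these data known. Other settings gave other counts. With 0.1 TPM added 9 of 39 were higher and 2 of 39 lower, where 10.9% and 5.18% of all genes were. By average read counts 10 of 39 were higher and 2 of 39 lower, where 12.2% and 5.75% of all genes were. In each case the higher share was larger than that of all genes, and the lower share was close to it. At a fold of 2 the counts were 1 higher (2.56%) and 0 lower, where 2.32% and 0.407% of all genes were, so that the higher share was then close to that of all genes. The nearest genes to the mark were Casp6 (1.53-fold lower with the 1 TPM added) and Bok (1.56-fold higher) just inside, and Apaf1 and Casp4 just outside, both at 1.44-fold. The median log2 ratio of the averages, also with 1 TPM added, was 0.19 for the 39 genes and 0.02 for all genes, and it ran from −0.61 (Casp6) to 1.79 (Bcl2a1).

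**Figure D1:**
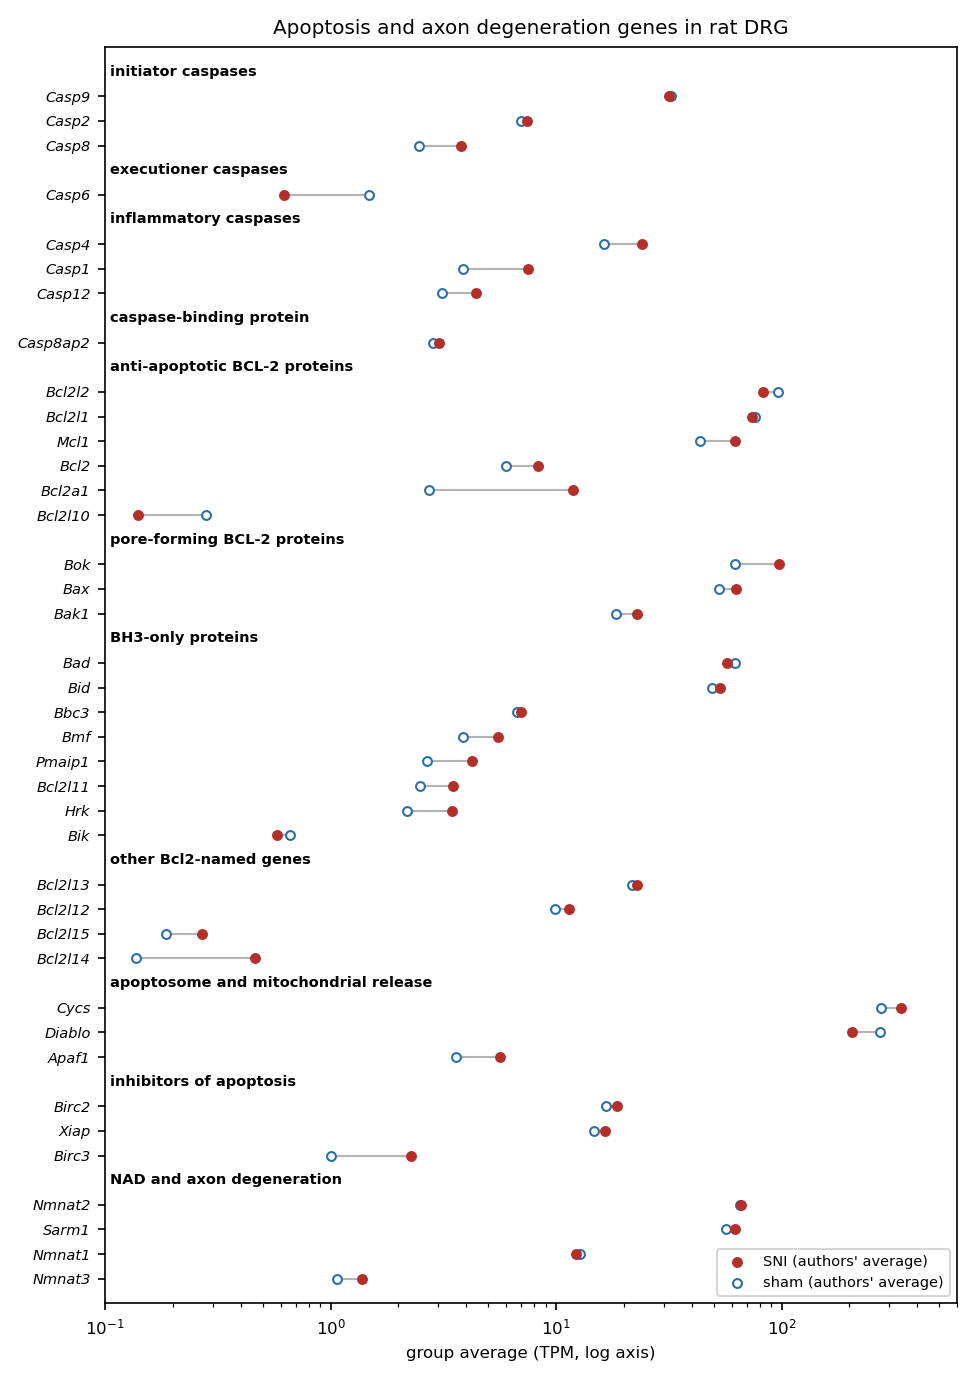
The authors' average TPM of each of the 39 genes (log axis) in SNI (filled) and sham (open), by role and by sham level. Many pairs of points nearly touch, while Bcl2a1 stands at 11.9 TPM in SNI and 2.73 TPM in sham, and Cycs and Diablo lie far to the right of all other genes shown.

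**Figure D2:**
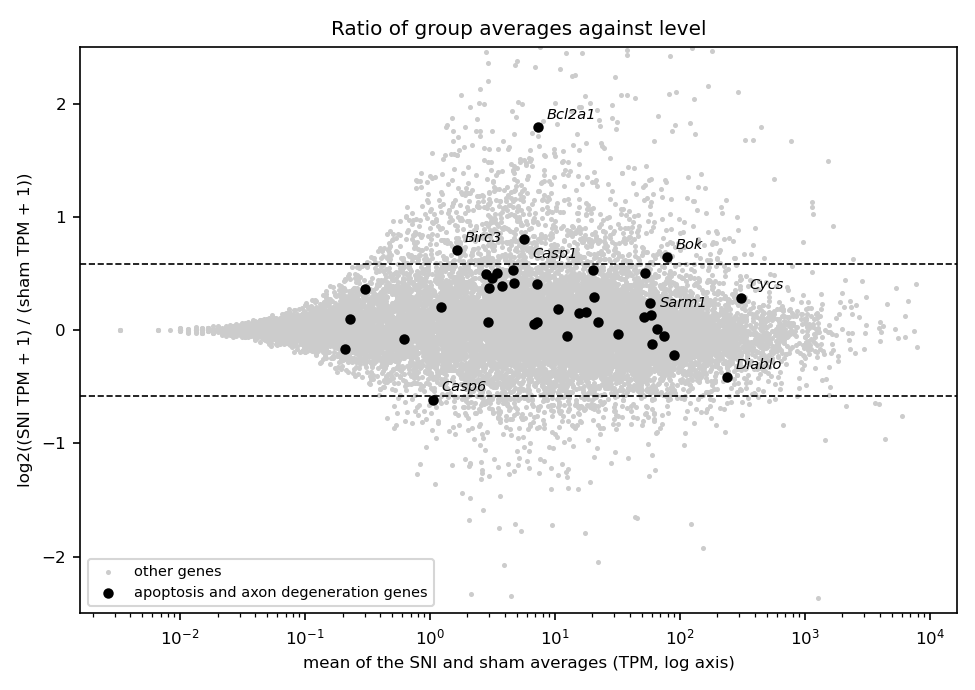
Log2 ratio of the SNI to the sham average, each with 1 TPM added, against the mean of both averages (log axis), for all genes (grey) and the 39 genes (black). The dashed lines mark 1.5-fold; 4 black points lie above the upper line and Casp6 lies below the lower one, and 47 genes lie beyond the axis limit of 2.5.

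In SNI a larger share of the RNA came from genes of blood-borne and immune cells, which also make several of these transcripts. The summed average of 10 macrophage markers was 616 TPM in SNI and 269.8 TPM in sham, with all 10 higher in SNI and none at 0. Only Mrc1 and Cd163 of them have values per library, and their sum ran between 14.5 and 15.4 TPM in SNI libraries and between 13.4 and 13.9 TPM in sham libraries. Neither passed the limma test described below (limma adjusted p = 0.073 for Mrc1 and 0.73 for Cd163). The 7 T cell markers with averages summed to 16.3 and 9.03 TPM in SNI and sham, all 7 higher in SNI. For 8 neutrophil markers the sums were 489.9 TPM in SNI and 312 TPM in sham, and 6 were higher. Mpo, the only neutrophil marker with values per library, had a lower mean in SNI and did not pass (limma adjusted p = 0.62). Erythrocyte markers, 7 with averages, summed to between 751 and 785 TPM in SNI libraries and between 219 and 243 TPM in sham libraries. These 7 and the 2 T cell markers with values per library, Cd3e and Cd8a, were called higher with limma, where 32.0% of all genes tested were. All 10 sensory neuron markers were present in both groups (28015 TPM in SNI and 33359 TPM in sham in sum), and 8 of them were lower in SNI. Of 10 genes known to be induced in injured sensory neurons, Atf3 and Gap43 among them, all had averages at least 1.5-fold higher in SNI, with sums of 3459 TPM in SNI and 444 TPM in sham. All 10 are in the authors' deposited list of higher genes, and the list was put together with earlier results of these data known. Myelinating Schwann cell markers summed to 5954 TPM in SNI and 11059 TPM in sham. In a tissue extract, fewer cells of a type and less RNA per cell cannot be told apart. The part of these cell types and of the injury genes in the differences below was not tested.

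Among the initiator caspases Casp9, the caspase of the apoptosome, was the most abundant. Its averages were 31.6 TPM in SNI and 32.4 TPM in sham. Casp2, which acts in responses to damaged DNA and failed division, averaged 7.43 TPM in SNI and 7.02 TPM in sham. Casp8, the caspase of death receptors, was the rarest at 3.77 TPM in SNI and 2.47 TPM in sham. The 3 thus kept their order in both groups, with Casp9 and Casp2 nearly level between groups and Casp8 at 1.53 times its sham average. Casp8ap2, which has a caspase in its name but is a scaffold protein known for the processing of histone transcripts, averaged 3.03 TPM in SNI and 2.84 TPM in sham.

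Casp6 (NCBI Gene ID 83584), an executioner caspase that has been linked to the breakdown of axons, had 0.623 TPM in SNI and 1.48 TPM in sham. Its average read counts were low, 8.80 in SNI and 20.9 in sham, so the counts leave its ratio of 0.42 imprecise. Casp6 and the initiator caspases have no values per library here and are not in the authors' lists of higher or lower genes, so their spread between libraries is unknown.

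All 3 inflammatory caspases had higher averages in SNI. Casp1 (Gene ID 25166), which matures interleukins 1β and 18, averaged 7.50 TPM in SNI and 3.88 TPM in sham, a ratio of 1.94. Casp4, the rat gene also called Casp11, which senses bacterial lipopolysaccharide in rodents, was the most abundant of them at 23.9 TPM in SNI and 16.3 TPM in sham. Casp12, a caspase linked to the endoplasmic reticulum in rodents, averaged 4.41 TPM in SNI and 3.12 TPM in sham. Summed, they stood at 35.8 TPM in SNI and 23.3 TPM in sham, next to macrophage markers that summed to 616 and 269.8 TPM. In the RefSeq annotation of the GRCr8 assembly the 3 genes follow each other on chromosome 8 with 0 protein-coding genes between them. The start regions of Casp1 and Casp12 are shown because these genes, which lie on either side of Casp4, both had higher averages in SNI and their windows share a short motif. The sequences run from 250 bases before to 50 bases after the annotated start (RefSeq, GRCr8, plus strand, chr8:10872580-10872879 for Casp1 and chr8:10926938-10927237 for Casp12), with the interferon response element core TTTCNNTTTC in capitals.
Casp1: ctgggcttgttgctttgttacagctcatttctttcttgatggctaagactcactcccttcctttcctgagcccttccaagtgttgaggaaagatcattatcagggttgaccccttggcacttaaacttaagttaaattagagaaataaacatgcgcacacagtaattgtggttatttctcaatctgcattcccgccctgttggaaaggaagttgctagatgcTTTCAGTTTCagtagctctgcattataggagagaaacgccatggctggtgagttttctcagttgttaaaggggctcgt
Casp12: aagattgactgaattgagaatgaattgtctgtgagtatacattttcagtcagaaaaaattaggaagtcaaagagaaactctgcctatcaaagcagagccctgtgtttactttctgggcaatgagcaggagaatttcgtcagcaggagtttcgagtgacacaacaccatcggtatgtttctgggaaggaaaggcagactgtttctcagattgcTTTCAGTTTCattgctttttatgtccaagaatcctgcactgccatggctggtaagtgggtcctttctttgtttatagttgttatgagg
The core begins 28 bases before the start in Casp1 and 38 bases before it in Casp12, and its letters are the same in both, TTTCAGTTTC. It lies within a shared run of 14 bases, the longest that both windows hold. Of 33469 RefSeq promoter windows of this length, 3.92% hold the core on either strand. Among the 39 genes, 29 have such a window, and 2 of these, Casp1 and Casp12, hold the core. Casp4 has no window, so it was not searched. Such a match describes the letters and does not show a bound site.

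Most of the anti-apoptotic BCL-2 transcripts came from 3 genes, Bcl2l2, Bcl2l1 and Mcl1. Bcl2l2, which encodes BCL-W, averaged 82.8 TPM in SNI and 96.4 TPM in sham. Bcl2l1, which encodes BCL-XL, stood at 73.9 TPM in SNI and 76.5 TPM in sham. Mcl1, a short-lived protein, averaged 62.5 TPM in SNI and 43.6 TPM in sham, a ratio of 1.43. Bcl2a1 (Gene ID 170929), a survival protein best known from white blood cells, where NF-kB induces it, had the largest ratio of all 39 genes. It averaged 11.9 TPM in SNI and 2.73 TPM in sham, a ratio of 4.36, from average read counts of 73.3 and 16.7, and the authors' deposited list of higher genes includes it. Bcl2l10 was barely detected, with average read counts of 1.33 in SNI and 2.67 in sham. As a sum the 6 genes stood at 239.5 TPM in SNI and 226 TPM in sham.

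The start region of Bcl2a1 is shown because the gene has the largest ratio (RefSeq, GRCr8, plus strand, chr8:98596556-98596855, the same window), with a match to the AP-1 motif TGANTCA in capitals.
Bcl2a1: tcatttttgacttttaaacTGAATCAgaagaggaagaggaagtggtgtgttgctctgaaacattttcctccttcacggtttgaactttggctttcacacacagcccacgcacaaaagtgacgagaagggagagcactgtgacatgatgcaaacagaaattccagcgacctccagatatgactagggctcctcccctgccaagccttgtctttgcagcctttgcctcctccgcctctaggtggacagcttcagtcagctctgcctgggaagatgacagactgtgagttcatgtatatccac
This match begins 231 bases before the start, and 7.33% of the 33469 windows hold the motif on either strand. A search of the windows of 29 members also covered the NF-kB motif, the cAMP response element TGACGTCA and the p53 half-site. The AP-1 motif was also found in Birc2 and Diablo, and the NF-kB motif in Mcl1 and Pmaip1 (4.18% of all windows). The cAMP response element (1.83% of all windows) and the p53 half-site (7.98%) were found in 0 of the 29. The other 10 members had no window and were not searched: Bax, Bbc3, Bcl2l10, Bik, Birc3, Bok, Casp4, Casp8, Casp8ap2 and Xiap.

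Bcl2 (Gene ID 24224), the founding member of the family, is 1 of the pair of genes with values per library. It stood at 8.50, 7.84 and 8.59 TPM in the SNI libraries and at 7.20, 4.86 and 5.96 TPM in the sham libraries. All SNI libraries lay above all sham libraries, with the sham libraries more spread out. The means were 8.31 ± 0.410 TPM in SNI and 6.01 ± 1.17 TPM in sham (SD, n = 3 each). With limma across the 1596 genes tested, Bcl2 rose by 0.42 on the log2(TPM + 1) scale (SE 0.12, Benjamini-Hochberg adjusted p = 0.013). In that table, which is itself a selection of genes, 32.0% of genes were called higher and 29.2% lower, so a call there is common. Quantile normalization ended the call, at a log2 fold change of 0.18 (limma adjusted p = 0.14), and moved the 363 tested genes with a mean of 5 to 20 TPM by a median of −0.17. The ratio of Bax to Bcl2 averages was 7.54 in SNI and 8.81 in sham. Such a ratio is often used as a sign of readiness for apoptosis. Here it is one of RNA averages over a whole tissue, and readiness was not tested.

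All 3 genes of the pore-forming group had higher averages in SNI. Bax averaged 62.7 TPM in SNI and 52.9 TPM in sham, and Bak1 22.8 TPM in SNI and 18.4 TPM in sham. The least understood of them, Bok (Gene ID 29884), was also the most abundant, with 97.5 TPM in SNI and 62.0 TPM in sham, a ratio of 1.57 from average read counts of 1225 and 780. Divided by the sum of the anti-apoptotic genes, the 3 came to 0.764 in SNI and 0.591 in sham. Without Bok the same quotient was 0.357 in SNI and 0.316 in sham.

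The 2 abundant BH3-only genes, Bad and Bid, were nearly level, and the 6 rarer ones had ratios from 0.87 to 1.60. Bad, which responds to growth factor withdrawal, averaged 57.0 TPM in SNI and 62.1 TPM in sham. Bid, the link from death receptors to mitochondria, stood at 53.5 TPM in SNI and 49.2 TPM in sham. Bbc3, which encodes the p53 target PUMA, averaged 7.01 TPM in SNI and 6.69 TPM in sham. Hrk, which is induced in neurons deprived of nerve growth factor, averaged 3.47 TPM in SNI and 2.17 TPM in sham, a ratio of 1.60. Pmaip1, which encodes NOXA, had 4.22 TPM in SNI and 2.68 TPM in sham, a ratio of 1.57. Bmf, known from cells that lose their anchorage, averaged 5.53 TPM in SNI and 3.88 TPM in sham, and Bcl2l11, which encodes BIM, 3.51 TPM in SNI and 2.49 TPM in sham. Bik was near the limit of detection at 0.577 TPM in SNI and 0.660 TPM in sham. In sum the group stood at 134.9 TPM in SNI and 129.9 TPM in sham.

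Of the other Bcl2-named genes, Bcl2l13, a mitophagy receptor, averaged 22.9 TPM in SNI and 21.6 TPM in sham, and Bcl2l12 11.4 TPM in SNI and 9.89 TPM in sham. Bcl2l14 and Bcl2l15 had average read counts under 10 in both groups, as did Bik and Bcl2l10. For Bcl2l14 these were 7.67 in SNI and 2.33 in sham. Bcl2l15 had 35.8 reads per TPM in SNI and 21.4 in sham, a quotient of 1.67 where the median over all genes was 1.01, so its TPM and its reads give different ratios.

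The genes of mitochondrial release were the most abundant of the 39. Cycs, cytochrome c, averaged 337 TPM in SNI and 276 TPM in sham, and as rodent genomes hold many processed copies of it, its level is uncertain where reads could be shared. Diablo averaged 204.6 TPM in SNI and 273 TPM in sham, a ratio of 0.75, the lowest of the 4 members that had a lower average in SNI and an average above 50 TPM in both groups. Its log2 ratio was at percentile 5.13 of all genes. Apaf1, the scaffold of the apoptosome, was scarce beside them at 5.63 TPM in SNI and 3.59 TPM in sham, a ratio of 1.57. There were 59.9 Cycs transcripts for each Apaf1 transcript in SNI and 76.8 in sham.

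The inhibitors of apoptosis bind caspases or mark proteins of death receptor complexes with ubiquitin. Xiap (Gene ID 63879), which blocks Casp9 directly, has values per library: 15.6, 16.8 and 16.9 TPM in SNI and 16.6, 13.6 and 13.9 TPM in sham. The groups overlap, as sham library 1 lies above SNI library 1. The means were 16.4 ± 0.729 TPM in SNI and 14.7 ± 1.69 TPM in sham (SD, n = 3 each), and the difference did not pass the test (log2 fold change 0.16, SE 0.08, limma adjusted p = 0.14). Without sham library 1 it did pass (log2 fold change 0.24, limma adjusted p = 0.013). Birc2, which encodes cIAP1, averaged 18.7 TPM in SNI and 16.6 TPM in sham. Birc3 (Gene ID 78971), which encodes cIAP2 and is a known NF-kB target, averaged 2.27 TPM in SNI and 1.01 TPM in sham, a ratio of 2.26, from average read counts of 58.2 and 26.4. It is next to Birc2 on chromosome 8 and similar to it, so that reads could be shared. Birc3 is in the authors' deposited list of higher genes, as the second of 2 members there beside Bcl2a1, and 0 members are in the lower list. The lists take in 3.63% of all genes with averages as higher and 0.695% as lower. Diablo transcripts per Xiap transcript numbered 12.5 in SNI and 18.6 in sham.

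The genes of the axonal route differed little. Sarm1, the NAD-cleaving enzyme that carries out axon degeneration, averaged 62.1 TPM in SNI and 56.5 TPM in sham, a ratio of 1.10. Nmnat2, its axonal counterpart, stood at 66.1 TPM in SNI and 65.4 TPM in sham, a ratio of 1.01. The quotient of Nmnat2 to Sarm1 averages was 1.06 in SNI and 1.16 in sham. Nmnat1, the nuclear enzyme, averaged 12.3 TPM in SNI and 12.7 TPM in sham, and the mitochondrial Nmnat3 was rare at 1.37 TPM in SNI and 1.06 TPM in sham. No member of this group has values per library, so a difference between groups could not be tested.

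**Figure D3:**
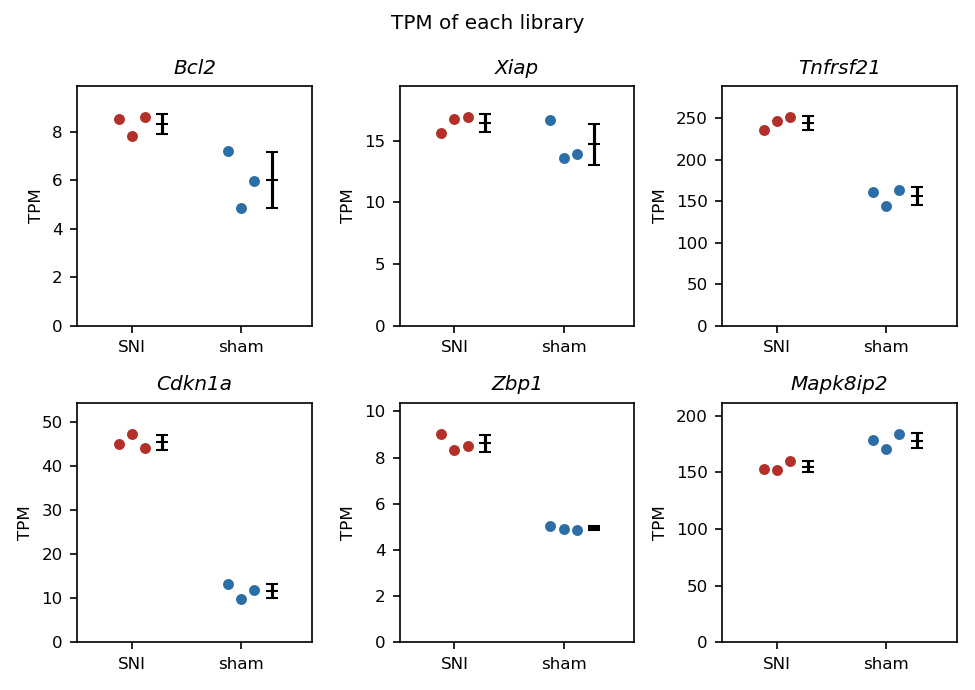
TPM of each library (points) with mean and SD (n = 3 each) for Bcl2, Xiap and 4 genes of related pathways. Among the genes shown, SNI and sham libraries overlap for Xiap alone. The 4 pathway genes shown are all ones that limma called, and others with values per library, such as Perp and Mycbp2, overlap. Cdkn1a stands at 45.5 TPM in SNI and 11.7 TPM in sham on average.

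Lists of 113 further genes of 10 related pathways were set beside these genes, and 112 of them have averages. Averages were at least 1.5-fold higher in SNI for 20 of the 112 (17.9%) and lower for 0, where 5.91% and 2.19% of all genes were. The 10 pathway lists were chosen with earlier results of these data known, so these shares are not a test of them. The authors' deposited lists name 10 as higher and 0 as lower, where they name 3.63% and 0.695% of all genes with averages. Only 13 have values per library, of which 3 rose, 3 fell and 7 did not pass with limma, in a table where 32.0% of all genes tested were called higher and 29.2% lower.

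Necroptosis and inflammasome genes had the highest medians. The median log2 ratio was 0.59 for 4 necroptosis genes and 0.50 for 12 genes of pyroptosis and the inflammasome, against 0.02 for all genes. Each of the 16 averaged higher in SNI, where 53.1% of all genes did. Many are low: the median sham average was 4.77 TPM for the first list and 2.36 TPM for the second, against 10.2 TPM for all genes. Ripk3, a kinase that starts necroptosis, averaged 7.07 TPM in SNI and 1.92 TPM in sham and is in the authors' deposited list of higher genes. Zbp1, a sensor that activates it, stood at 9.03, 8.31 and 8.52 TPM in the SNI libraries and at 5.05, 4.93 and 4.87 TPM in the sham libraries. These groups did not overlap, and Zbp1 rose by 0.69 on the log2 scale (SE 0.07, limma adjusted p = 3.8e-05). Il18 and Il1b, the cytokines that Casp1 matures, averaged 12.7 and 4.11 TPM in SNI, against 5.07 and 1.66 TPM in sham. Nlrc4, an inflammasome sensor, averaged 1.00 TPM in SNI and 0.323 TPM in sham. Those 3 genes are in the authors' deposited list of higher genes, and the macrophage markers stood beside them at 616 TPM in SNI and 269.8 TPM in sham.

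The list of the p53 pathway had a median log2 ratio of 0.37 over 11 genes, with 9 higher in SNI. Gadd45a, a stress gene, averaged 212 TPM in SNI and 36.9 TPM in sham. Cdkn1a, an inhibitor of the cell cycle, stood at 45.0, 47.4 and 44.1 TPM in the SNI libraries and at 13.2, 9.93 and 11.9 TPM in the sham libraries. It rose by 1.88 on the log2 scale (SE 0.09, limma adjusted p = 2.1e-07), while the p53 targets Perp and Zmat3, the other 2 with values per library, did not pass (limma adjusted p = 0.24 and 0.12; named after their values were seen). In the list of the kinase cascade that signals axon injury and its transcription factors, 10 of 15 averages were lower in SNI and the median log2 ratio was −0.07. Its transcription factors Atf3 and Jun had ratios of 35.4 and 3.37. All 3 of its genes with values per library fell, Map2k4, Mapk10 and Mapk8ip2 (log2 fold changes −0.13, −0.19 and −0.20, limma adjusted p = 0.049, 0.011 and 0.0060), the first pair being named after their values were seen. The call of Mapk10 was lost without SNI library 1 (limma adjusted p = 0.051), and that of Map2k4 without SNI library 1 or 3 or any of the sham libraries (0.063 to 0.17) with the replicate block (0.071), without an intensity trend (0.062) and after quantile normalization (0.06). Perp was called lower after quantile normalization (limma adjusted p = 0.026).

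Among 13 death receptor genes 7 averaged higher and 6 lower in SNI, with a median log2 ratio of 0.19. Tnfrsf21, death receptor 6, which has been linked to axon pruning, was also on the list of 11 axon degeneration effectors. Of these 11, 8 averaged higher and 3 lower in SNI, with a median log2 ratio of 0.05. At least 1.5-fold higher were 3 of the 13 (23.1%) and 2 of the 11 (18.2%), where 5.91% of all genes were. Tnfrsf21 stood at 235, 246 and 251 TPM in the SNI libraries and at 161, 144 and 164 TPM in the sham libraries. The groups were well apart, and Tnfrsf21 rose by 0.64 on the log2 scale (SE 0.06, limma adjusted p = 1.2e-05). Map3k5, Mycbp2, whose product marks NMNAT2 for removal, and Ube4b, the other 3 effectors with values per library, did not pass as deposited (limma adjusted p = 1.0, 0.33 and 0.26; named after their values were seen). After quantile normalization Map3k5 and Mycbp2 were called lower (log2 fold changes −0.19 and −0.18, limma adjusted p = 0.032 and 0.019).

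In 13 genes of NAD synthesis and use the median log2 ratio was 0.17 and 10 averaged higher in SNI. Cd38, another NAD-cleaving enzyme and one that white blood cells carry, averaged 6.10 TPM in SNI and 2.52 TPM in sham. Other inhibitors of apoptosis had a median of 0.03 over 8 genes. Naip6, from a family of near-identical copies that can share reads, averaged 0.900 TPM in SNI and 0.173 TPM in sham. Medians were −0.03 for 11 further genes of mitochondrial release and −0.03 for 15 partners of BCL-2 proteins. At least 1.5-fold higher in SNI were 0 of the 11 and 1 of the 15 (6.67%), where 5.91% of all genes were. The most abundant genes of these lists were level: the mitochondrial channels Vdac3 and Vdac1 averaged 416 and 336 TPM in SNI, against 436 and 346 TPM in sham. Bnip3 and Tmbim6 averaged 394 and 382 TPM in SNI, against 406 and 392 TPM in sham.

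**Figure D4:**
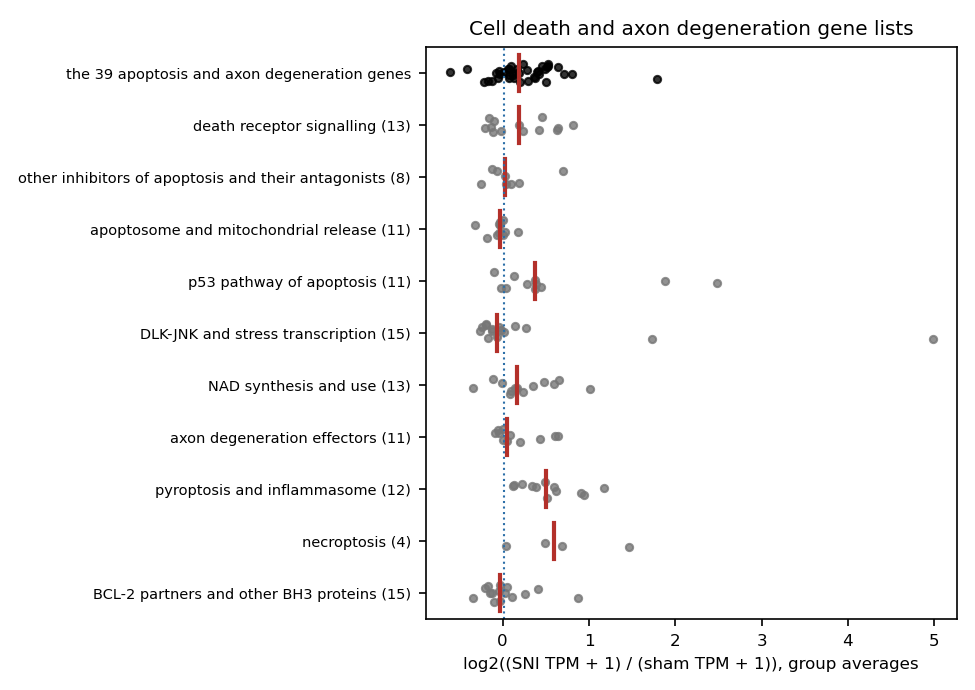
Log2 ratio of the SNI to the sham average, each with 1 TPM added, for the 39 genes (black) and for the genes of each related list (grey, number of genes in brackets); red bars are medians and the dotted line is the median of all genes, 0.02. The medians of the necroptosis (0.59) and inflammasome (0.50) lists lie farthest right, and the point near 5 is Atf3.

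In the authors' deposited list of 699 higher genes, 312 carry a KEGG pathway name and 13 of those (4.17%) the term Apoptosis. Bcl2a1 and Birc3 are the 2 of the 39 genes among the 13. In the authors' deposited list of lower genes, 1 of 49 with a pathway name carries that term. The deposited tables give no such names for genes outside the lists, so these shares have no background to be read against.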

How the data were processed

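RNA was sequenced from 3 SNI and 3 sham libraries. The authors deposited, per the file headers, 1637 genes with a TPM value for each library and 18696 genes with the TPM and the read count averaged over each group. The counts are estimated counts that the authors averaged before they were deposited. There are also 2 lists, of higher and of lower genes, with KEGG names. The sources used here name no aligner, counter, genome build, strand setting or test of the authors. Columns named control were taken as sham. The average counts deposited by the authors summed to 18.6 M in SNI and 18.6 M in sham, and the depth of each library is unknown. TPM per library covered 25.8% to 27.1% of a full library.

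The 1596 genes whose mean reached 1 TPM were compared as log2(TPM + 1) with limma 3.58.1 (R 4.3.3; intensity trend, group as the only term, Benjamini-Hochberg adjustment over all genes tested, threshold 0.05), after a test on simulated data. With 3 libraries a side, permutation could not reach a two-sided p below 0.1, so it was not used. Group averages have no test. The members and lists were chosen with earlier results of these data known. The rule finds 41 genes. Of these, 39 are named and counted, and the others are not reported here. The genes named besides them are, per related list, up to 3 called or author-listed genes that differed most, or the 2 most abundant where there was none. Promoters came from RefSeq (GRCr8), where 29 of the 39 genes had a promoter window. As the files name no build, only these sequences carry coordinates. Figures used Python 3.11.15 and matplotlib 3.10.9.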

Additional observations from a re-analysis of the deposited data

How the results depend on the processing

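Counts over the group averages moved with the constant added, the measure and the mark. Members at least 1.5-fold higher in SNI numbered 9 with 0.1 TPM added and 10 by average read counts, against 4, and 1 at a fold of 2, an alternative chosen after seeing the data. Members lower in SNI numbered 2, 2 and 0 in the same order, against 1. Of all genes 10.9%, 12.2% and 2.32% were higher in that order, against 5.91%. Lower were 5.18%, 5.75% and 0.407% of all genes, against 2.19%. The median log2 ratio of the members was 0.24 with 0.1 TPM added, 0.26 by read counts and 0.20 for the 35 members with a mean of at least 1 TPM, against 0.19. Only 2 members were tested with limma. After quantile normalization 0 of them were called higher, with Bcl2 at a log2 fold change of 0.18, where 402 of all 1596 genes tested were. With each library left out, 1 to 2 of them were called higher, where 445 to 524 of all genes tested were. Quantile normalization moved the log2 fold changes of all genes tested by a median of −0.076. Leaving out libraries gave log2 fold changes of 0.30 to 0.54 for Bcl2 and 0.10 to 0.24 for Xiap. Small values of 3 genes that were not called as deposited changed sign: after quantile normalization Birc6 (−0.044), Map3k5 (−0.19) and Opa1 (−0.038), and with libraries left out Map3k5 (−0.039 to 0.058) and Opa1 (−0.032 to 0.049). The causes were not tested. The labels do not say that replicate numbers pair the libraries, and the deviations of same-numbered libraries correlated at −0.09, −0.06 and 0.19. With the replicate block 498 genes were called higher and 447 lower (510 and 466 without it), and the log2 fold change of Bcl2 was 0.42 (limma adjusted p = 0.0066).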
